A study of Homo sapiens with 48 samples.

Results

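Long introns of at least 2000 nt that are almost always spliced in control cells were followed through depletion of a pair of splicing factors, SF3B1 and RBM39. The introns were chosen by length and by their control values: they had a percent spliced in (PSI, here the share of junction reads that still hold the intron) in all 48 libraries, a coverage score above the lowest class in each, and a mean PSI below 10% over the 16 libraries that received non-targeting siRNA. Of 150827 introns in the table, 65328 were of that length, 25117 of these had a PSI in all 48 libraries, 9192 passed the coverage score and 9139 were below 10% in controls. The 53 long introns at or above 10% were left out. The 9139 introns lay in 3659 genes. As the control libraries were used for selection, low control values are not a finding, and differences from controls, with the counts of introns called against them, are given as a description with no p.

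The cells were IMR90, an established line of human lung fibroblasts, carrying a fusion of the oestrogen receptor with oncogenic RAS (ER:RAS), which 4-hydroxytamoxifen (4OHT) switches on to drive oncogene-induced senescence. Cells were given DMSO, the solvent, or 4OHT for 6 days, were then transfected with siRNA, and RNA was taken 48 h later. Each of 6 groups held 8 libraries: DMSO or 4OHT, each with siNT (non-targeting, siNT1 and siNT2), siSF3B1 (siSF3B1-13 and siSF3B1-16) or siRBM39 (siRBM39-06 and siRBM39-08), with 4 replicates of each siRNA under each treatment. All groups, controls included, carried the ER:RAS fusion, so DMSO cells are fusion-bearing cells without the inducer and not unmodified IMR90. The labels do not say whether replicates were separate cultures, and the methods describe in vitro replicates in general as independent experiments.

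SF3B1 is the largest subunit of the SF3b complex in the U2 snRNP and holds the branch point adenosine near the 3' end of an intron before the first step of splicing. RBM39 is an RNA-binding protein related to the large subunit of U2AF, the factor that reads the pyrimidine tract and the AG at the 3' splice site, and it is the target of aryl sulfonamide degraders. Retained introns in human cells are typically short and rich in G and C, whereas the splice sites of long introns are generally paired across the exon, and a failure there more often skips an exon than keeps the intron.

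The ends of a few introns on which the results turn are shown here. FOXF2, LONP1 and FAM100A reached a high PSI with siSF3B1, FAM100A with most of its reads at the downstream end. ABCC1 had reads at both ends, EPHB2 and VHL had reads at the upstream end, and the intron of SON fell. Each line gives the end of the upstream exon and the start of the intron, then the end of the intron and the start of the downstream exon, 5' to 3' on the strand of the gene, from the GRCh37 reference. Capitals mark the first and last pair of intron bases.
FOXF2 intron 1 of 1, chr6:1391354-1394930, plus strand, upstream end: cagGTaacg
FOXF2 downstream end: ttttttctttcttctttcAGtgg
ABCC1 intron 20 of 30, chr16:16196575-16200594, plus strand, upstream end: gagGTaagg
ABCC1 downstream end: cttgtgctttgcttctccAGaca
LONP1 intron 4 of 17, chr19:5708415-5711781, minus strand, upstream end: aaaGTgagt
LONP1 downstream end: ccctgccccatacttggcAGgcc
FAM100A intron 1 of 2, chr16:4660557-4664678, minus strand, upstream end: gagGTgcgc
FAM100A downstream end: aggggcctttcttcctgcAGaca
EPHB2 intron 3 of 15, chr1:23111570-23189529, plus strand, upstream end: gagGTaagg
EPHB2 downstream end: ctccttgtcttctctctcAGgtt
VHL intron 1 of 2, chr3:10183872-10188197, plus strand, upstream end: gagGTacgg
VHL downstream end: acctttgcttgtcccgatAGgtc
SON intron 8 of 11, chr21:34941394-34945613, plus strand, upstream end: aagGTacac
SON downstream end: acctttctttctttggatAGgat
All of these begin with GT and end with AG. The 18 bases before the AG were 100% pyrimidine in FOXF2, 94.4% in EPHB2, 83.3% in ABCC1, 77.8% in SON, 72.2% in LONP1 and VHL and 66.7% in FAM100A, beside a median of 77.8% over the 9029 long introns that matched an annotated intron. The printed upstream ends of ABCC1 and EPHB2 have the same letters, although reads gathered at both ends of the first and at only the upstream end of the second.

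The libraries held 31467221 to 52734636 gene counts. The siRNAs lowered their targets: SF3B1 lay at 311 to 396 CPM (counts scaled to the library total) in DMSO siNT libraries and at 30.4 to 35.2 CPM in DMSO siSF3B1 libraries, and at 315 to 340 against 25.3 to 30.7 CPM in 4OHT. RBM39 lay at 158 to 185 CPM in DMSO siNT and 24.2 to 31 CPM in DMSO siRBM39 libraries, and at 115 to 127 against 13.7 to 18.4 CPM in 4OHT. Each knockdown also raised the other factor, so neither is a neutral reference for the other. The SF3B1 median was 508 CPM in DMSO siRBM39 against 362 in DMSO siNT, and 425 against 327 in 4OHT. The RBM39 median was 308 CPM in DMSO siSF3B1 against 172 in DMSO siNT, and 252 against 120 in 4OHT. Fibroblast genes were abundant in every library, with COL1A1 at 3001 CPM or more and VIM at 4428 CPM or more, while epithelial EPCAM reached at most 2.57 CPM and leukocyte PTPRC at most 0.184 CPM. The library of 4OHT siRBM39-08 replicate 4 stood apart: its correlation across genes with the other replicates of its siRNA and treatment was 0.915, where the next lowest was 0.982. The 4OHT differences of siRBM39-08 from siSF3B1 and from DMSO are given with and without it. A long intron was read at a median of 61 junction reads per library, and an exception at a median of 57 and at least 9.

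Long introns stayed spliced in nearly all cases. The mean PSI over the 9139 introns was 0.318 to 0.591% in DMSO siNT libraries (median 0.453%) and 0.332 to 0.439% in 4OHT siNT libraries (median 0.378%). In siSF3B1 libraries it was 0.759 to 0.989% in DMSO (median 0.801%) and 0.918 to 0.990% in 4OHT (median 0.962%), so all 16 lay above all 16 controls. In siRBM39 libraries it was 0.538 to 0.704% in DMSO (median 0.600%) and 0.461 to 0.656% in 4OHT (median 0.582%), which overlapped siNT in DMSO and did not in 4OHT. The median intron moved by 0.00625 PSI points in siSF3B1-13 and by 0 in both siRBM39 siRNAs, and 1114 of the 9139 introns were listed at a PSI of 0 in all 48 libraries. In these bulk libraries a higher share in some of the cells and a small rise in all of them cannot be told apart.

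The share of introns whose PSI rose by at least 10 points was smaller in each longer class with siSF3B1-13. Among introns of any length that passed the same selection, 9.76% of those of 150 nt or less rose by at least 10 PSI points in siSF3B1-13 over siNT (Wilson 95% interval 8.80 to 10.8%, 3362 introns). The share was 6.02% above that and below 500 nt, 3.56% from 500 to below 1000 nt and 2.42% from 1000 to below 2000 nt. Within the long introns it was 1.09% below 5000 nt (0.846 to 1.41%, 5309 introns), 0.725% from 5000 to below 10000 nt (0.440 to 1.19%, 2070 introns) and 0.114% at 10000 nt or more (0.0312 to 0.413%, 1760 introns). The intervals of the 2 classes below 10000 nt overlap. With siSF3B1-16 the shares went from 8.89% at 150 nt or less to 0.866%, 0.676% and 0.170% in the long classes. With siRBM39-06 the share was 0.654% in the shortest class, highest in the next class below 500 nt (0.782%), and 0.113%, 0.0483% and 0.114% in the long classes. With siRBM39-08 it was 1.22% in the shortest class and 0.245%, 0.0483% and 0.114% in the long ones. These intervals cover counting error over introns only, and introns of 1 gene share its transcripts.

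Under the filters of the study (a PSI range of at least 5 points and no library in which the reads along the intron were unbalanced), 5248 introns of any length and 1411 of the long introns could be tested. A call required an adjusted p below 0.05 over all introns tested and a difference of at least 5 points. Over all 5248 introns, siSF3B1 raised 10.8% in DMSO and 14.7% in 4OHT, while 50 long introns (3.54%) and 73 long introns (5.17%) were called higher. siRBM39 raised 1.91% of all introns in DMSO and 1.92% in 4OHT, beside 7 and 11 long introns, 0.496% and 0.780% of the 1411. These counts describe the selected introns, as siNT served both to choose them and as the reference. The 5248 introns had no limit on their siNT PSI, unlike the 1411, so the 2 sets differ in more than length.

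The exceptions are the long introns whose PSI rose by at least 10 points after knockdown. An SF3B1 exception is an intron whose mean PSI over the 8 siSF3B1-13 libraries was at least 10 points above the siNT mean, and an RBM39 exception one that met the same limit in siRBM39-06. There were 75 SF3B1 exceptions and 9 RBM39 exceptions, 80 in all because 4 were both, in 78 genes. With the second siRNA of each target, reads lay at both ends of 33 of the 75 and 2 of the 9. A rise in PSI thus need not mean that the whole intron was kept. Of the 75, 33 were shorter than 3000 nt and 2 were of 10000 nt or more, with the shortest at 2004 nt and the longest at 77960 nt. At the edge of the SF3B1 limit, METRNL (10.03 points), TPP2 (10.2) and PCYT1A (10.2) lay just inside, and PPP2R2D (9.91) and LTBP3 (9.62) just outside. At the edge of the RBM39 limit, CPNE1 (10.15), FAM20C (10.7) and KLC2 (11) lay just inside, and the preceding intron of FAM20C (9.26), PTDSS2 (9.04) and PRMT7 (8.995) just outside.

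The second siRNA of each target, which was not used to choose the exceptions, gave like values. In siSF3B1-16, 55 of the 75 SF3B1 exceptions were at least 10 points above siNT, 74 were at least 5 points above and all 75 were above it, with a median difference of 13.2 points beside 14.8 in the choosing siRNA. In siRBM39-06 and siRBM39-08, 4 of the 75 reached 10 points in each, and the median differences were 1.36 and 2.30 points. Averaged over the 75 introns, DMSO siNT libraries lay at 2.44 to 3.86% (median 3.17%), DMSO siSF3B1 at 16.2 to 21.8% (median 18.2%) and DMSO siRBM39 at 4.86 to 6.20% (median 5.68%). In 4OHT the 3 groups lay at 2.78 to 3.31%, 19 to 23% and 5.23 to 8.89%, with medians of 3.02%, 21.4% and 6.37%. The siSF3B1 libraries here include the siRNA that chose the introns, and siNT served as its reference, so the distance between these groups is a description.

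**Figure D1:**
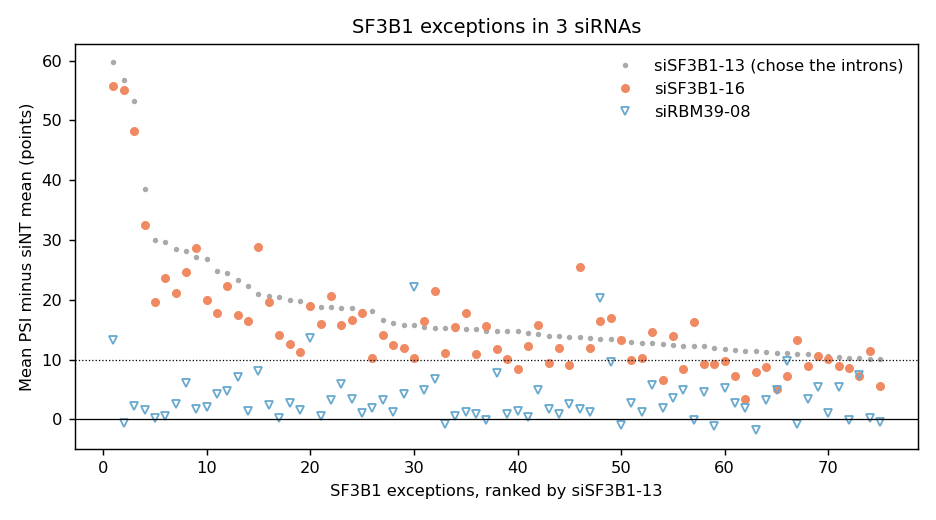
Difference of mean PSI from the siNT mean in points (vertical axis) for the 75 SF3B1 exceptions, ranked by siSF3B1-13 (horizontal axis), which chose them. Each intron has 1 grey point for siSF3B1-13, 1 orange point for siSF3B1-16 and 1 blue triangle for siRBM39-08, and 55 of the orange points are at or above the dotted line at 10 points while 4 of the triangles are.

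A held-out test compared siSF3B1-16 with the siRBM39 libraries, since neither entered the choice of SF3B1 exceptions. The range and balance filters did use all 48 libraries, these included, so the set that could be tested was not independent of them. Of the 13 SF3B1 exceptions that passed the filters, 10 were called higher in siSF3B1-16 in DMSO, where the background over all introns was 7.74%, and 13 of 13 in 4OHT, where it was 11.4%. The median difference of the 13 was 9.16 points in DMSO and 14.1 points in 4OHT, beside 0.71 and 1.12 points over all introns tested. When introns with unequal ends were let in (8557 introns), 55 of 75 were called in DMSO against a background of 16.3%, and 63 of 75 in 4OHT against 21.3%. The median differences were then 10.5 and 12.6 points, beside 1.16 and 1.71 points over all introns.

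The most retained of the introns that passed the filters was the only intron of FOXF2, a forkhead transcription factor of lung and gut mesenchyme (GRCh38 chr6:1391119-1394695, coding, 3577 nt). Its PSI was 0 to 9.90% in DMSO siNT (median 4.47%) and 0 to 6.95% in 4OHT siNT (median 2.45%), and 39.6 to 65.0% in DMSO siSF3B1 (median 59.6%) and 42.4 to 65.6% in 4OHT siSF3B1 (median 53.5%). In siRBM39 it was 1.41 to 11.4% in DMSO (median 4.25%) and 0 to 8.37% in 4OHT (median 4.86%). Every siSF3B1 library thus lay far above every other library. siSF3B1-16 exceeded siRBM39 by 49.9 points in DMSO (limma adjusted p = 2.15e-08) and by 43.5 points in 4OHT (limma adjusted p = 5.64e-08). Reads lay on both ends, with 201 at the upstream and 102 at the downstream junction over the 8 siSF3B1-16 libraries, against 139 spliced reads.

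Intron 20 of ABCC1, a membrane pump that exports drugs and glutathione conjugates (GRCh38 chr16:16102718-16106737, 4020 nt), was read more deeply. Its PSI was 1.15 to 6.81% in DMSO siNT (median 3.85%) and 17.2 to 33.8% in DMSO siSF3B1 (median 28.8%), with DMSO siRBM39 between them at 6.88 to 10.8% (median 8.31%). In 4OHT the siNT libraries lay at 1.68 to 5.79% (median 2.04%), siSF3B1 at 15.1 to 38.1% (median 30.9%) and siRBM39 at 2.79 to 20% (median 9.61%). The siSF3B1 libraries were above all siNT libraries, and in 4OHT they overlapped siRBM39. The difference of siSF3B1-16 from siRBM39 was 23.1 points in DMSO (limma adjusted p = 5.45e-06) and 21.6 points in 4OHT (limma adjusted p = 1.64e-05). RCC2, a regulator of chromosome segregation, differed by 25.5 points in DMSO (limma adjusted p = 1.31e-05) and by 21.7 points in 4OHT (limma adjusted p = 0.000243). Its intron 11 of 12, the shortest of the named set at 2070 nt, rose from 1.90% ± 2.14 (SD, n = 16) in siNT to 27.4% ± 9.77 (SD, n = 8) in siSF3B1-16.

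ZBTB7A and TCF3 encode transcription factors. ZBTB7A, a zinc finger repressor, kept its last intron (5726 nt) at 6.90 to 32.1% in DMSO siSF3B1 (median 19.1%) and 13.3 to 40% in 4OHT siSF3B1 (median 24.4%), and siNT stayed at or below 5.56%. Its difference of siSF3B1-16 from siRBM39 was 18.6 points in DMSO (limma adjusted p = 0.000743) and 16.7 in 4OHT (limma adjusted p = 0.000562). TCF3, which encodes E proteins of the basic helix-loop-helix family, kept intron 16 of 18 (3289 nt) at 6.67 to 15.3% in DMSO siSF3B1 (median 11.5%) and 13.9 to 21.3% in 4OHT siSF3B1 (median 15.5%). Its siNT libraries reached at most 2.35%, and no siSF3B1 library overlapped them. The difference of siSF3B1-16 from siRBM39 was 9.16 points in DMSO (limma adjusted p = 1e-09) and 14 points in 4OHT (limma adjusted p = 4.35e-10), the lowest p of the 12 named passing introns under each treatment.

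PPP1R12C and MKNK2 act in signalling. PPP1R12C, a targeting subunit of myosin phosphatase, rose at intron 4 of 21 (4313 nt) from at most 2.38% in any siNT library to 4.15 to 26.4% in DMSO siSF3B1 and 11.8 to 28.2% in 4OHT siSF3B1, with medians of 16.9% and 23.1%. It differed from siRBM39 by 12.8 points in DMSO (limma adjusted p = 2.86e-05) and 20.5 points in 4OHT (limma adjusted p = 8.95e-07). MKNK2, a kinase that phosphorylates the cap-binding translation factor eIF4E, differed by 5.78 points in DMSO (limma adjusted p = 0.0416) and 9.68 points in 4OHT (limma adjusted p = 0.00348), and its DMSO call was lost when any of replicates 1, 2 or 4 was left out (5.04, 4.26 and 6.29 points). Its intron 5 of 13 was also above siNT in siRBM39, at 4.89% ± 1.46 (SD, n = 8) in siRBM39-06 and 4.99% ± 3.5 in siRBM39-08 against 0.746% ± 0.871 (SD, n = 16) in siNT.

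The last intron of GRAMD1A, a cholesterol carrier at contacts of the endoplasmic reticulum, was at most 2.80% in siNT and 9.59 to 36.8% in DMSO siSF3B1 (median 14.4%). It differed from siRBM39 by 16.4 points in DMSO (limma adjusted p = 8.92e-07) and 14.1 points in 4OHT (limma adjusted p = 2.26e-07). UBE3C, a ubiquitin ligase of the proteasome, differed by 8.63 points in DMSO (limma adjusted p = 0.0126), a call lost without replicate 1 (6.34 points) or replicate 4 (6.51 points), and by 10.5 points in 4OHT (limma adjusted p = 0.000619). Its 3' end carried the lowest share of pyrimidines of the passing introns, 55.6% of 18 bases.

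At 3 of the 12 introns of the passing group named here the held-out siRNA did not reach a call in DMSO. NTAN1, which removes the amide from N-terminal asparagine, differed by 5.71 points in DMSO (limma adjusted p = 0.262, and 9.39 points with adjusted p = 0.0319 without replicate 1) and by 15.1 points in 4OHT (limma adjusted p = 3.49e-05). GSTO1, an omega-class glutathione transferase, differed by 3.56 points in DMSO (limma adjusted p = 0.0828) and 6.66 points in 4OHT (limma adjusted p = 0.00531). FBXO18, a DNA helicase also named FBH1, differed by -1.09 points in DMSO (limma adjusted p = 0.83) and 5.03 points in 4OHT (limma adjusted p = 0.0114). The 4OHT call of FBXO18 was lost at 4.56 points without replicate 3, at 3.68 without replicate 4 and at 4.64 without the library that stood apart alone. FBXO18 was the only one of the 13 passing introns with all of its junction reads at the downstream end, 13 of 13 in siSF3B1-16, and its PSI in siSF3B1-16 was 3.87% ± 3.44 against 11.9% ± 6.35 in the choosing siRNA (SD, n = 8 each). The 13th passing intron, in SAP30BP, went from 1.24% in siNT to 11.5% in siSF3B1-13 and 9.87% in siSF3B1-16.

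**Figure D2:**
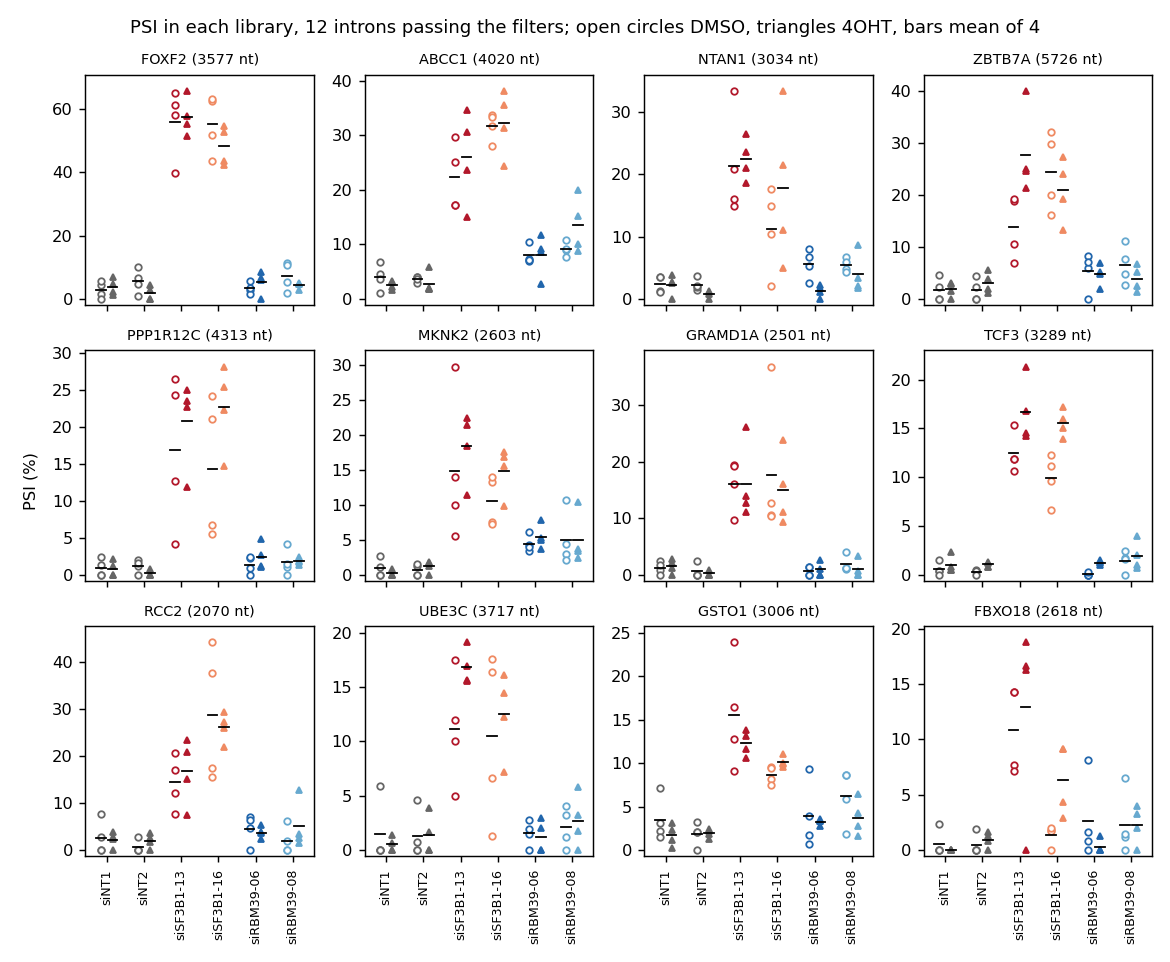
PSI in % (vertical axes) in each of 48 libraries for 12 SF3B1 exceptions that passed the range and balance filters, by siRNA (horizontal axes). Open circles are DMSO libraries, triangles 4OHT libraries and bars the mean of 4, and FOXF2 stands at 39.6% or more in all 16 siSF3B1 libraries and at or below 11.4% in the others.

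The introns with the 2 largest rises, in LONP1 and FAM100A, failed the balance filter, and FOXF2, which passed it, came next. The filter removes an intron when the balance test deposited with the PSI, which compares the reads at the 2 ends and takes in those of the intron body, was below 0.05 in any of the 48 libraries, and 62 of the 75 SF3B1 exceptions and all 9 RBM39 exceptions failed it. Among introns of 150 nt or less that rose by 10 points, 79.6% failed it as well, beside 79.3% of those from 2000 to below 5000 nt and 93.3% of those from 5000 to below 10000 nt. Intron 4 of LONP1, the protease of the mitochondrial matrix (GRCh38 chr19:5708404-5711770, 3367 nt), rose most. It was at 3.66 to 9.09% in DMSO siNT (median 5.29%), at 55.9 to 77.6% in DMSO siSF3B1 (median 67.2%) and at 13.6 to 27.7% in DMSO siRBM39 (median 20.2%). In 4OHT it was at 2.19 to 7.78% (median 6.20%), 46.7 to 69.4% (median 60.4%) and 13.4 to 25.2% (median 16.3%), so the 3 groups were separate under both treatments.

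Intron 1 of FAM100A, named UBALD1 in current annotation (GRCh38 chr16:4610556-4614677, 4122 nt), was at 2.33 to 24.1% in DMSO siNT (median 8.28%) and 55.2 to 77.4% in DMSO siSF3B1 (median 62.6%). DMSO siRBM39 libraries lay at 6.83 to 13.4% (median 9.33%), within the siNT range. siSF3B1-16 exceeded siRBM39 by 53.4 points in DMSO (limma adjusted p = 1.08e-10) and 57.5 points in 4OHT (limma adjusted p = 4.57e-12). TCF25, a subunit of the ribosome quality control complex, had a PSI of 29.5 to 47.6% at intron 12 of 17 (3323 nt) in DMSO siSF3B1 (median 36.6%), with siNT at 1.46 to 7.89% and siRBM39 at 2.04 to 4.76%. It differed from siRBM39 by 31.7 points in DMSO (limma adjusted p = 1.39e-12) and 30.8 points in 4OHT (limma adjusted p = 1.2e-09). For LONP1 the same differences were 46.5 points (limma adjusted p = 3.8e-11) and 39.7 points (limma adjusted p = 6.97e-10), where siRBM39-06 had also been used to choose it.

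PSI pools the reads at the 2 ends of an intron, so an intron can score as retained when only 1 end gains reads. The split of the junction reads and the reads inside the intron body did not enter the selection rule by themselves and were examined in siSF3B1-16. With both ends holding between 20 and 80% of the exon-intron reads counted as balanced, 33 of the 75 SF3B1 exceptions (44%) had reads at both ends, 30 (40%) had over 80% at the downstream end and 12 (16.0%) had under 20% there, that is, mostly upstream reads. Over the 1142 long introns with at least 20 exon-intron reads in siSF3B1-16, these shares were 54.7%, 31% and 14.3%. Among shorter introns that rose by 10 points in siSF3B1-13, 71.6% of 328 introns of 150 nt or less and 68.5% of 531 introns between that length and 2000 nt had both ends. Of the 13 exceptions that passed the filter 12 had both ends, and of the 62 that failed it 21 had. The filter itself compares the 2 ends in these libraries, so this contrast is partly fixed by it. FAM100A had 51 upstream and 589 downstream reads in siSF3B1-16 and TCF25 had 55 and 327, while LONP1 had 165 and 408.

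Reads in a central window of 200 nt of each intron gave a further view of the same libraries. The median ratio of body signal to the mean of the 2 junctions was 0.616 for exceptions with both ends, 0.301 for those with downstream reads and 0.0894 for those with upstream reads, over 32, 28 and 11 introns with a usable window. Body reads were called higher in siSF3B1-16 than in siNT (edgeR on the body reads of 25219 introns) at 39 of 71 SF3B1 exceptions in DMSO, where the background was 17.3%, and at 50 of 71 in 4OHT, where it was 21.9%. By class these were 22 of 32 with both ends, 13 of 28 downstream and 4 of 11 upstream in DMSO, and 26, 18 and 6 in 4OHT. Over all long introns with a window, 576 and 895 of 8800 were called, which is 6.55% and 10.2%. In siRBM39-08, 3 of the 8 RBM39 exceptions with a window were called in DMSO (background 4.22%) and 2 of 8 in 4OHT (background 4.79%). siNT also entered the selection of the introns, so these counts are a description.

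Some exceptions had many junction reads and none in the body. CDC42BPB, a kinase that acts on the actin cytoskeleton, had 29 upstream and 174 downstream reads at its last intron (4260 nt) over the 8 siSF3B1-16 libraries and 0 body reads in a full window. ADAMTS12, a secreted metalloproteinase, had 123 upstream reads, 0 downstream and 0 body reads at intron 14 of 23 (8158 nt). CHD4, the chromatin remodelling ATPase of the NuRD complex, had 15 upstream and 167 downstream reads at intron 25 of 39 (4005 nt) and 0 body reads over a smaller window of 79 positions. It is a different event from the CHD4 intron whose retention the study measured by RT-qPCR. ZBTB7A, by contrast, had 43 and 62 junction reads and 226 body reads. These 3 introns were named after their values were seen.

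**Figure D3:**
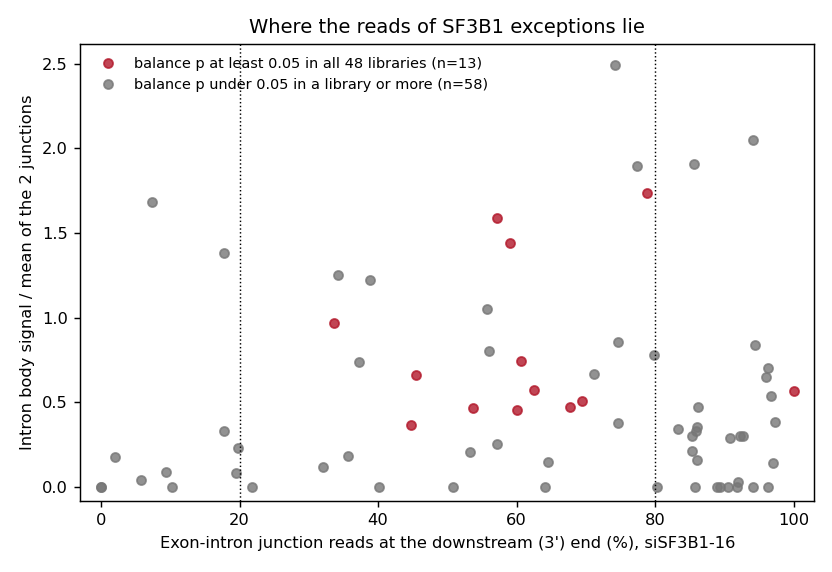
Share of exon-intron junction reads at the downstream end in % (horizontal axis) against the ratio of intron body signal to the mean of the 2 junctions (vertical axis), for 71 SF3B1 exceptions with a usable body window, pooled over 8 siSF3B1-16 libraries. Red points are the 13 introns that passed the balance filter and grey points the 58 that failed it, the dotted lines mark 20 and 80%, and 12 of the red points lie between the lines. The filter itself compares the 2 ends, so the place of the red points is partly fixed by it.

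The annotated surroundings of the SF3B1 exceptions were described over the 71 that matched an annotated intron, beside all 9029 matched long introns. An annotated exon of another transcript covered the 5' splice site of 42.3% of the exceptions and the 3' splice site of 43.7%, beside 18% and 17.1% of all long introns. Last introns made up 23.9% of the exceptions (10.5% of all) and first introns 4.23% (10.7% of all). The intron itself held a median of 51.6% G and C (42.1% of all), the flanking exon bases 55.8% (48.3% of all), and the median length was 3101 nt (4217 nt). The median share of pyrimidines before the AG was 77.8% in both sets, and 95.8% of exceptions and 97.0% of all long introns lay within coding sequence. These are counts without a test, and length and base composition move together across introns.

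Introns that were exceptions for both targets numbered 4, in LONP1, TWSG1, EPHB2 and KLC2. TWSG1, a secreted protein that binds bone morphogenetic proteins, had a higher PSI at its last intron (2799 nt) with siRBM39 than with siSF3B1. It was at 4.36 to 10.4% in DMSO siNT (median 8.24%), 13.9 to 28.2% in DMSO siSF3B1 (median 20.4%) and 24.5 to 40.1% in DMSO siRBM39 (median 29.9%). In 4OHT it was at 1.37 to 10.9% (median 3.62%), 10.8 to 26.5% (median 17.8%) and 17.1 to 26% (median 20.5%), so the 2 knockdowns overlapped there. siRBM39-08 exceeded siSF3B1 by 15.9 points in DMSO (limma adjusted p = 0.006) and 2.33 points in 4OHT (limma adjusted p = 0.566), or 2.05 points without the library that stood apart. Of its junction reads in siRBM39-08, 389 were upstream and 16 downstream. KLC2, a kinesin light chain, was at 9.87% ± 5.45 (SD, n = 16) in siNT, close to the selection limit, and at 20.9 to 28.9% in the mean of each of the 4 knockdown siRNAs, with reads at both ends (57 and 80 in siRBM39-08).

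The RBM39 exceptions rose again with the second siRNA, which had not chosen them. Of the 9, 8 were at least 10 points above siNT in siRBM39-08 and all 9 at least 5 points, with a median of 13.5 points. Over the 9 introns, DMSO siRBM39 libraries lay at 15.03 to 20.02% (median 16.5%) and DMSO siNT at 3.20 to 6.12% (median 5.03%). DMSO siSF3B1 libraries lay at 15.1 to 19.6% (median 17.1%), and 4 of the 9 introns are also SF3B1 exceptions. Against siSF3B1, with introns of unequal ends let in, siRBM39-08 was called higher at 4 of 9 in DMSO (background 3.26%) and 5 of 9 in 4OHT (background 2.31%). For the 4 introns of both targets, siSF3B1-13, part of this reference, had also been used to choose them. Without those, 3 of 5 were called in DMSO and 5 of 5 in 4OHT. The 5 in 4OHT include the FAM20C intron, which met the 10-point limit through its 4OHT libraries. Without the library that stood apart, 2 of 9 were called in 4OHT, in VHL and LAMB1.

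VHL, the substrate receptor of the ubiquitin ligase that degrades hypoxia-inducible factors, had the largest rise over siSF3B1 among the RBM39 exceptions. Its intron 1 (4326 nt) was at 0.80 to 11.1% in DMSO siNT (median 4.92%), 3.92 to 12.3% in DMSO siSF3B1 (median 8.54%) and 15.9 to 30.4% in DMSO siRBM39 (median 20.3%). All siRBM39 libraries in DMSO were above all other DMSO libraries. In 4OHT siRBM39 lay at 17.1 to 47.4% and siSF3B1 at 9.26 to 22.9%, which overlap. siRBM39-08 exceeded siSF3B1 by 18 points in DMSO (limma adjusted p = 0.000178) and 17.5 points in 4OHT (limma adjusted p = 0.00373), or 12.2 points without the library that stood apart (limma adjusted p = 0.0406). The reads lay at the upstream end, 129 against 2 downstream and 8 in the body in siRBM39-08, beside 86, 2 and 9 in the 16 siNT libraries.

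LAMB1, a laminin chain of basement membranes, showed the opposite end. Its intron 27 of 33 (3037 nt) was at 1.63 to 2.93% in DMSO siNT (median 2.65%) and 9.13 to 15.3% in DMSO siRBM39 (median 12.7%), with 44 upstream and 336 downstream reads in siRBM39-08. It exceeded siSF3B1 by 8.91 points in DMSO (limma adjusted p = 5.94e-06) and 11.9 points in 4OHT (limma adjusted p = 3.58e-06), or 13.2 points without that library (limma adjusted p = 6.55e-06). SLC35F5, a solute carrier, differed by 6.89 points in DMSO (limma adjusted p = 0.0019) and 6.12 points in 4OHT (limma adjusted p = 0.00463), with 157 upstream, 20 downstream and 0 body reads at intron 7 of 15. Without the library that stood apart its 4OHT difference was 3.99 points (limma adjusted p = 0.0486), under the limit of 5 points, and the call was lost. CPNE1, a calcium-dependent membrane-binding protein, differed by 8.96 points in 4OHT (limma adjusted p = 0.0194) and 0.89 points in DMSO (limma adjusted p = 0.757), and with KLC2 it was one of the 2 RBM39 exceptions that had reads at both ends (146 and 175, with 561 in the body). Its 4OHT call was lost as well without that library, at 7.28 points (limma adjusted p = 0.0803). The values of VHL, LAMB1 and SLC35F5 were chosen for the text after they were seen, as no RBM39 exception passed the filters.

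**Figure D4:**
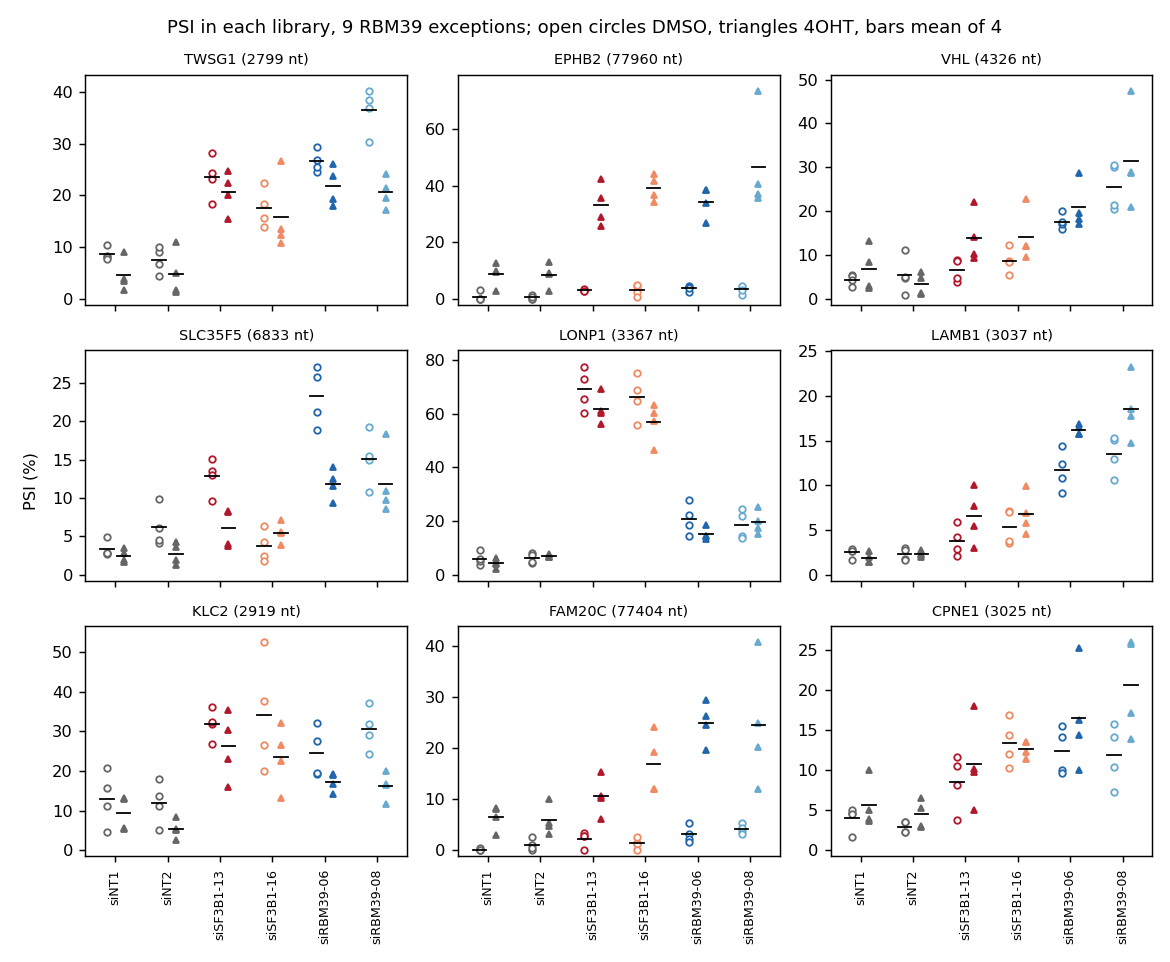
PSI in % (vertical axes) in each of 48 libraries for the 9 RBM39 exceptions, by siRNA (horizontal axes), with open circles for DMSO, triangles for 4OHT and bars for the mean of 4. VHL and LAMB1 are higher with siRBM39 than with siSF3B1, LONP1 the reverse, and EPHB2 and the FAM20C intron are raised in 4OHT libraries, where the lone EPHB2 triangle at 73.3% is the library that stood apart.

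A few exceptions were called between DMSO and 4OHT, in EPHB2, FAM20C, CREB3L1 and TRAF7. Of the 13 exceptions that passed the filters, 0 were called between treatments within siNT (background 0.0953%), within siSF3B1-16 (0.171%) or within siRBM39-08 (0.0762%) by limma, and at an unadjusted p below 0.05 there were 0, 1 and 0. With unequal ends let in, 3 of 80 exceptions were called within siNT (background 0.783%), 4 within siSF3B1-16 (0.386%) and 4 within siRBM39-08 (0.503%). At an unadjusted p below 0.05 (limma) there were 17, 13 and 20 of the 80, where the share over all 8557 introns was 11.1%, 12.2% and 11.1%. EPHB2 and both FAM20C introns were called in each of the 3 settings. These introns met the 10-point limit through their 4OHT libraries: in the choosing siRNA, EPHB2 was at 3.01% in DMSO and 33.2% in 4OHT, and the FAM20C introns were at 5.25% and 28.4% (siSF3B1-13) and at 3.09% and 25% (siRBM39-06). The rule averaged both treatments, so the counts are a description, and the 4OHT differences of EPHB2 and FAM20C are given with no p. The fourth was CREB3L1, a membrane-bound transcription factor, in siSF3B1-16 (-9.87 points in 4OHT, limma adjusted p = 0.0196) and TRAF7, a ubiquitin ligase, in siRBM39-08 (8.57 points, limma adjusted p = 0.000361, and 9.10 points without the library that stood apart). CREB3L1 was at 13.1% in DMSO and 3.20% in 4OHT in siSF3B1-16, with 4OHT libraries at 0 to 7.42%. In siSF3B1-13 it was at 16.2% and 12.3%, with 4OHT libraries at 3.96 to 18.2%. TRAF7 was at 3.75% and 7.73% in siRBM39-06.

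EPHB2 is a receptor for ephrin-B ligands, and its intron 3 (GRCh38 chr1:22785077-22863036, 77960 nt) was the longest exception. It was at 0 to 3.17% in DMSO siNT (median 0%) and 2.68 to 13.1% in 4OHT siNT (median 9.41%), at 0.75 to 4.76% in DMSO siSF3B1 (median 2.94%) and 25.8 to 44.1% in 4OHT siSF3B1 (median 36.2%). In siRBM39 it was at 1.45 to 4.64% in DMSO (median 3.92%) and 26.8 to 73.3% in 4OHT (median 37.6%). The treatments overlapped in siNT, where the highest DMSO library lay above the lowest 4OHT library, and in neither knockdown. The 4OHT difference was 7.91 points within siNT, 36.1 points within siSF3B1-16 and 43.3 points within siRBM39-08, or 34.4 points without the library that stood apart. As the intron was chosen through its 4OHT libraries, these differences are a description. On the logit scale of the test the interaction of either siRNA with treatment was not called at EPHB2, which is a description for the same reason. Over all introns that test called 0.0117% for siSF3B1-16 and 0% for siRBM39-08, with 0 of 80 exceptions in each. At an unadjusted p below 0.05 (limma) there were 13 and 8 of 80, where the share over all 8557 introns was 8.6% and 5.98%.

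The EPHB2 reads lay at 1 end. In siSF3B1-16 there were 121 reads at the upstream and 0 at the downstream junction, which allows a downstream share of at most 3.08% (Wilson 95% interval, counting error only), and in siRBM39-08 there were 194 and 0, which allows at most 1.94%. The 16 siNT libraries held 118 upstream and 2 downstream reads, and the body window held 1, 1 and 0 reads in siNT, siSF3B1-16 and siRBM39-08. Expression of EPHB2 was -0.95 ± 0.08 (SE, log2) in siSF3B1 against siNT in 4OHT and 0.07 ± 0.08 in DMSO.

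FAM20C, a Golgi kinase of secreted proteins, held neighbouring exceptions. The intron at GRCh38 chr7:195733-208897, an SF3B1 exception, was at 0 to 1.30% in DMSO siNT and 1.62 to 12% in 4OHT siNT, and at 2.08 to 8.20% in DMSO siSF3B1 and 20.9 to 44.1% in 4OHT siSF3B1, without overlap between the treatments. Its 4OHT difference was 5.29 points within siNT, 32.6 within siSF3B1-16 and 20.3 within siRBM39-08, or 20.4 without the library that stood apart. The next intron, an RBM39 exception that starts at chr7:208977, lay between 1.68 and 5.38% in siRBM39 libraries of DMSO cells and between 12 and 40.7% in those of 4OHT cells. Its 4OHT difference was 5.58 points within siNT, 15.5 within siSF3B1-16 and 20.4 within siRBM39-08, or 15 without that library. Both FAM20C introns were chosen through their 4OHT libraries, so these differences are a description. The deposited length of this intron, 77404 nt, is not that of its deposited coordinates, which end at 246414.

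A few long introns went the other way. The mean PSI of 9 of the 9139 was at least 5 points under siNT in siSF3B1-13 and that of 4 in siSF3B1-16, a fall open only to introns that start above 5%. CLINT1, an adaptor of clathrin coats, went from 9.63% ± 6.72 (SD, n = 16) in siNT to 1.21% ± 1.45 in siSF3B1-13 and 1.58% ± 2.02 in siSF3B1-16 (SD, n = 8 each), and to 2.02% and 3.70% in the siRBM39 siRNAs. BOD1, which guides chromosome attachment to the spindle, went from 8.48% ± 2.71 to 1.92% ± 0.735 and 3.68% ± 1.48, while the siRBM39 means were 7.09% and 7.86%. SON, a scaffold protein of nuclear speckles that promotes splicing, went from 8.56% ± 3.41 to 2.14% ± 1.15 and 3.11% ± 1.22, with siRBM39 at 10.4% and 10.5%. At intron 8 of SON the DMSO siSF3B1 libraries lay at 0.36 to 3.91% against 2.96 to 15.2% in DMSO siNT, which overlap, and body reads were 122 over the 8 siSF3B1-16 libraries beside 401 over 16 siNT libraries. Annotated exons of other transcripts covered both ends of the CLINT1 and SON introns.

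Expression of the genes that hold exceptions was described in the deposited counts. Of the 74 genes with an SF3B1 exception 71 passed the count filter. In DMSO, 16 were called higher and 33 lower in siSF3B1 than in siNT, where 36.5% and 36.2% of all 9991 genes were called higher and lower. In 4OHT, 17 were higher and 42 lower, beside 39.4% and 37.6% of all genes. The median log2 change of the 71 genes was -0.10 in DMSO and -0.29 in 4OHT, beside 0.02 and 0.03 over all genes. Of the 9 genes with an RBM39 exception, 0 were higher and 4 lower with siRBM39 in DMSO (23.9% and 22.2% of all genes), and 0 were higher and 7 lower in 4OHT (32.2% and 24.3%). None was higher at an unadjusted p below 0.05 in edgeR or at an adjusted p below 0.05 in DESeq2 under either treatment.

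The direction varied among the hosts of the most retained introns. FOXF2 was 0.47 ± 0.05 (SE, log2) in siSF3B1 against siNT in DMSO and 0.33 ± 0.05 in 4OHT, and RCC2 was 0.61 ± 0.07 and 0.56 ± 0.07. ABCC1 was -0.72 ± 0.06 and -1.13 ± 0.07, NTAN1 was -0.73 ± 0.07 and -1.02 ± 0.07, and LONP1 was -0.03 ± 0.09 and -0.42 ± 0.09. SON, whose intron fell, was 0.80 ± 0.10 and 0.99 ± 0.10.

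Genes of RNA processing were looked for among the hosts. Of a list of 118 splicing and RNA processing genes, 58 held at least 1 of the 9139 long introns and 1 of the 58 held an exception, beside 78 of all 3659 host genes. This was CPSF6, a subunit of the cleavage factor that selects polyadenylation sites, whose intron 9 of 9 (6949 nt) lies in the 3' UTR. It went from 7.24% ± 3.73 (SD, n = 16) in siNT to 18.2% ± 4.50 in siSF3B1-13 and 16.2% ± 4.04 in siSF3B1-16 (SD, n = 8 each), beside 8.11% and 10.6% with siRBM39. In siSF3B1-16 its reads were 13 upstream and 154 downstream.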

How the data were processed

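The authors aligned and quantified the reads with vast-tools and deposited PSI as a percent for each intron and library, with a coverage score, the reads at each junction and in the intron body, and a balance p-value in the quality column, plus gene counts and cRPKM (corrected RPKM, made by the authors and not used for any value here). Per the labels the build is hg19, and the submitters' processing notes name edgeR and limma without versions. The deposited intron coordinates matched GRCh38 exons, so coordinates are given in GRCh38, and sequences were read from GRCh37 at the matching annotated exons. A further deposited table of normalised values was not used. The deposited counts are not normalised. Where a deposited length and coordinates disagree, length follows the length column.

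PSI was taken as a fraction and moved to 0.01 + 0.98 times the fraction, its logit was fitted with limma 3.58.1 (R 4.3.3) on all 48 libraries with 1 mean per group, or 1 per siRNA and treatment for held-out and treatment tests, and p-values were adjusted (Benjamini-Hochberg) over 5248 introns, or 8557 with the balance filter lifted. Gene counts with at least 10000 reads in total (9991 of 19509 genes) were tested with edgeR 4.0.16 (quasi-likelihood, TMM) and, as an alternative, DESeq2 1.42.0. The deposited body signal is scaled to 35 positions. Multiplied back, 100% of values lay within 0.25 of a whole read, and these reads were tested in edgeR over 25219 introns with at least 20 body positions. Summaries used Python 3.11.15, pandas 2.3.3 and scipy 1.17.1. The limma and edgeR steps were tested on simulated data.

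Members, gene lists and the body-read test were chosen with earlier results of these data known. Introns named in the text were the 12 filter-passing exceptions with the largest siSF3B1-13 difference, the 3 largest that failed the balance filter, those of both targets, the 3 on each side of each limit (1 of them is not reported here), the 3 largest falls and hosts in the RNA processing list. VHL, LAMB1, SLC35F5, CPNE1, CDC42BPB, ADAMTS12, CHD4, CREB3L1, TRAF7 and SAP30BP and the fibroblast markers were added after values were seen. The labels of 4 libraries titled siNT2 name siNT1 in the treatment field, which leaves their group as siNT. The labels show 4 replicates where the methods state 3. Replicates of a group differed by more than counting noise in all 72 pairs (chi-square per degree of freedom 2.00 to 583). No pairing by replicate number was seen in PSI: over 264 same-numbered pairs of groups the correlation of logit PSI deviations was -0.04 to 0.05, with 0 over 0.1. PSI values from few reads are noisy, so this check cannot exclude a shared effect, and gene counts were not checked in this way. Alternatives covered the filters, limits, choosing siRNA, count normalisation, replicate block and each replicate left out. The body-read filters and the removal of the library that stood apart were added after seeing the data.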

Additional observations from a re-analysis of the deposited data

Results flagged for a closer look

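Of 132 groups of 8 libraries examined, 22 held a library whose gap to its nearest neighbour was above Dixon's critical share of the range of its group at the 95% level. Chance alone flags about 1 in 20 groups, and PSI values from few reads are coarse. No explanation was tested for any of them.

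Among siNT libraries, ABCC1 was at 5.79% in 4OHT siNT2 replicate 1 (others 1.68 to 3.36%), TCF3 at 1.48% in DMSO siNT1 replicate 1 (0 to 0.43%) and 2.35% in 4OHT siNT1 replicate 1 (0.44 to 1.32%), and RCC2 at 7.69% in DMSO siNT1 replicate 1 (0 to 2.86%). UBE3C was at 3.92% in 4OHT siNT2 replicate 1 (0 to 1.65%) and GSTO1 at 7.14% in DMSO siNT1 replicate 3 (0 to 3.23%). FAM100A was at 24.1% in DMSO siNT1 replicate 4 (2.33 to 12.3%), TCF25 at 7.89% in DMSO siNT1 replicate 2 (1.46 to 4.05%) and EPHB2 at 3.17% in DMSO siNT1 replicate 4 (0 to 1.43%).

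Among siSF3B1 libraries, MKNK2 was at 29.7% in DMSO siSF3B1-13 replicate 4 (5.51 to 14%), GRAMD1A at 36.8% in DMSO siSF3B1-16 replicate 2 (9.59 to 19.4%) and TCF3 at 21.3% in 4OHT siSF3B1-13 replicate 3 (13.9 to 17.2%). BOD1 was at 5.26% in 4OHT siSF3B1-16 replicate 2 (2.10 to 3.08%). The mean PSI over all 9139 long introns was 0.989% in DMSO siSF3B1-13 replicate 4, where the other DMSO siSF3B1 libraries lay at 0.759 to 0.852%.

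Among siRBM39 libraries, NTAN1 was at 8.70% in 4OHT siRBM39-08 replicate 2 (0 to 3.33%), PPP1R12C at 4.76% in 4OHT siRBM39-06 replicate 3 (1.05 to 2.61%), MKNK2 at 10.6% in DMSO siRBM39-08 replicate 3 (2.07 to 6.03%) and GRAMD1A at 4.00% in DMSO siRBM39-08 replicate 4 (0 to 1.37%). RCC2 was at 12.8% in 4OHT siRBM39-08 replicate 3 (1.45 to 5.26%). Replicate 4 of siRBM39-08 in 4OHT, the library that stood apart in gene counts, was flagged for TCF3 at 3.93% (0.72 to 2.02%), for EPHB2 at 73.3% (26.8 to 40.5%) and for BOD1 at 2.10%, below the other 7 at 6.67 to 9.09%.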

How the results depend on the processing

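A reversal could be scored only for the held-out differences of named introns, and none was. Of these alternatives 159 were the same as the main result, 8 were weaker and 1 was stronger. For counts, which cannot reverse, 48 alternatives moved and 210 stayed close to the main count. The long introns called higher against siNT, 50 and 73 for siSF3B1 and 7 and 11 for siRBM39 in DMSO and 4OHT, became 163, 238, 56 and 70 with the balance filter lifted, 19, 30, 4 and 6 with the stricter coverage score and 9, 18, 2 and 1 with a limit of 10 points. Without a minimum range siRBM39 in 4OHT gave 5. Each replicate left out in turn gave 42 to 60, 73 to 79, 4 to 9 and 6 to 8, with 4 for siRBM39 in DMSO without replicate 3 and, in 4OHT, 7, 7 and 6 without replicates 1, 3 and 4.

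The 75 SF3B1 exceptions were 213 at a limit of 5 points, 17 at 20 points and 17 with a length of at least 5000 nt. The 9 RBM39 exceptions were 53, 0 and 3 under the same settings and 16 when siRBM39-08 chose them. In the held-out comparison, the 10 and 13 passing SF3B1 exceptions became 55 and 63 with any balance, and 6 in DMSO at 10 points. The 4 and 5 RBM39 exceptions became 2 and 3 at 10 points, and the 5 in 4OHT ranged from 1 (without replicate 4) to 5, with 3 without replicate 2 and 2 without the library that stood apart. Treatment calls went from 0 to 3, 4 and 4 within siNT, siSF3B1-16 and siRBM39-08 with any balance.

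Host genes changed by at least 2-fold numbered 0 higher and 2 lower in DMSO and 0 and 6 in 4OHT for siSF3B1, and 0 lower for siRBM39 in both. Leaving out a replicate gave 2 (without replicate 2) to 4 lower RBM39 hosts in DMSO and 4 (without replicates 1 or 3) to 7 in 4OHT. Body reads of RBM39 exceptions gave 1 (without replicate 1) to 3 calls in DMSO, and in 4OHT 1 to 2 (1 without replicate 3 or 4) and 1 with the full body window only. The cause of these changes was not tested, beyond the wider or narrower filters themselves.

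With the replicate number as a block the calls were 50, 74, 7 and 11 against siNT, 10 and 13 held out, 54 and 62 with any balance (55 and 63 without the block), and 39 and 50 for body reads. At an exception's median of 57 junction reads per library, differences of a few points were not detectable in single libraries.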

Other observations

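The neighbours of the SF3B1 exceptions were looked at in the held-out siRNA. Of 513 other introns of any length in 67 genes that hold an SF3B1 exception, 33 (6.43%) were at least 10 points above siNT in siSF3B1-16, and of 25166 introns in 5397 other genes 749 were (2.98%). The 33 lay in 18 of the 67 genes. Among other long introns of the same host genes, 0 of 146 in 55 genes reached 10 points in siSF3B1-16, which allows a share of up to 2.05% (3 counts of the total), and 8 of 8918 long introns of other genes did. Both long sets exclude the siSF3B1-13 exceptions by construction, so they are not a measure of how often a long intron rises. In siRBM39-08, 7 of the 513 (1.36%) and 149 of the 25166 (0.592%) reached 10 points.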
